A study of Oryza sativa with 6 samples.

Results

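The 7 genes described here regulate the anther and its tapetum, the innermost anther wall layer, which feeds developing microspores, the precursors of pollen grains, and then dies. They were chosen by locus identifier from a table of 42189 rice loci: MSP1 (LOC_Os01g68870), UDT1 (LOC_Os07g36460), TIP2, also called bHLH142 (LOC_Os01g18870), TDR (LOC_Os02g02820), EAT1 (LOC_Os04g51070), GAMYB (LOC_Os01g59660) and PTC1 (LOC_Os09g27620). RNA came from panicles of the rice cultivar Nipponbare, from 3 libraries of plants overexpressing OsEXPA7 and 3 libraries of wild type (WT), with the treatment given only as natural. OsEXPA7 is an alpha-expansin, a protein that loosens plant cell walls. The labels give neither the promoter that drives it, nor the number of transgenic lines, nor the panicle stage. The labels call the libraries biological replicates but name no separate plants or lines, so p-values measure only the spread between these libraries.

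In rice, MSP1 is a receptor kinase that, with the small secreted protein TDL1A, limits how many cells enter the germ line and allows the anther wall layers to form. The basic helix-loop-helix (bHLH) transcription factors UDT1, TIP2, TDR and EAT1 then carry the tapetum through differentiation and programmed death. TIP2 acts upstream of TDR and EAT1, and EAT1 activates the aspartic protease genes AP25 and AP37. GAMYB is a gibberellin-responsive MYB factor of the aleurone and the anther. PTC1 is a PHD-finger protein needed for tapetal death and the pollen wall. Expression of such genes is staged, so they are commonly read as markers of anther stage.

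Expression was given as TPM, an abundance per transcript length that sums to the same total in every library, so read depth is unknown. The locus paired with OsEXPA7, LOC_Os03g60720, had 4782 ± 403 TPM in overexpression panicles and 935 ± 45.7 TPM in WT panicles (SD, n = 3 each). Libraries correlated at 0.991 to 0.993 within a genotype and at 0.948 to 0.953 between genotypes, over log2(TPM + 1) of 23395 tested loci. The genotype and any harvest or library batch shared with it cannot be told apart. Panicle identity was checked with listed genes: 5 floral identity genes of the MADS family ranged up to 150.4 TPM in overexpression panicles and 78.2 TPM in WT panicles. All 6 listed late pollen loci stayed under 1 TPM in every library, and so did 5 of 6 listed inflorescence meristem loci.

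All 7 regulators passed the filter on low values, at least 1 TPM in at least 3 of 6 libraries. The bHLH factors TIP2 and TDR were higher in overexpression panicles, EAT1 was lower, and the other 4 genes did not pass the threshold (limma, Benjamini-Hochberg adjusted p under 0.05 over all tested loci). Among all tested loci 42.8% passed, 25.3% higher and 17.5% lower, so 2 of 7 higher and 1 of 7 lower are shares near the background. The counts therefore say nothing particular about these genes, and the results lie in which of them moved and by how much. Log2 changes are of TPM + 1, overexpression minus WT. The median change of the 7 genes was 0.14, beside 0.06 over all tested loci. In bulk panicles a different number of tapetal cells and a different amount of RNA per cell cannot be told apart.

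TIP2, which acts early in this cascade, had 60.8, 60.7 and 63.0 TPM in the overexpression libraries, against 31.1, 29.5 and 31.1 TPM in the WT libraries. The mean in overexpression panicles was 2.01 times the WT mean, the groups did not overlap, and the SD within each group was at most 2.99% of its mean. The log2 change was 0.99 ± 0.06 (SE, n = 3 each; limma adjusted p = 1.72e-06). It was larger in size than the change of 94.9% of all tested loci. The same share was 85.2% for EAT1, 77.7% for GAMYB and 74.0% for TDR. For UDT1 it was 54.9%, for PTC1 32.6% and for MSP1 9.67%. Among all loci of a library TIP2 ranked between 3317 and 3558 in overexpression panicles and between 6503 and 6872 in WT panicles.

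TDR, needed for tapetal degeneration, was the most abundant of the 7 genes in every library. It had 204, 192 and 204 TPM in the overexpression libraries, against 154, 154 and 142 TPM in the WT libraries. The groups did not overlap, and the mean was 33.2% higher in overexpression panicles. The log2 change was 0.41 ± 0.05 (SE, n = 3 each; limma adjusted p = 0.000253). Its 95% interval, 0.30 to 0.53, lay below that of TIP2, 0.86 to 1.11.

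EAT1, the factor downstream of TIP2 and TDR, had 37.6, 41.7 and 38.7 TPM in the overexpression libraries, against 57.3, 56.4 and 64.6 TPM in the WT libraries. All 3 overexpression libraries lay below all 3 WT libraries. The log2 change was -0.58 ± 0.07 (SE, n = 3 each; limma adjusted p = 0.000228). Thus EAT1 fell while the upstream factors TIP2 and TDR rose. Groups did not overlap for 3 of the 7 genes, TIP2, TDR and EAT1, beside 53.7% of all tested loci.

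**Figure D1:**
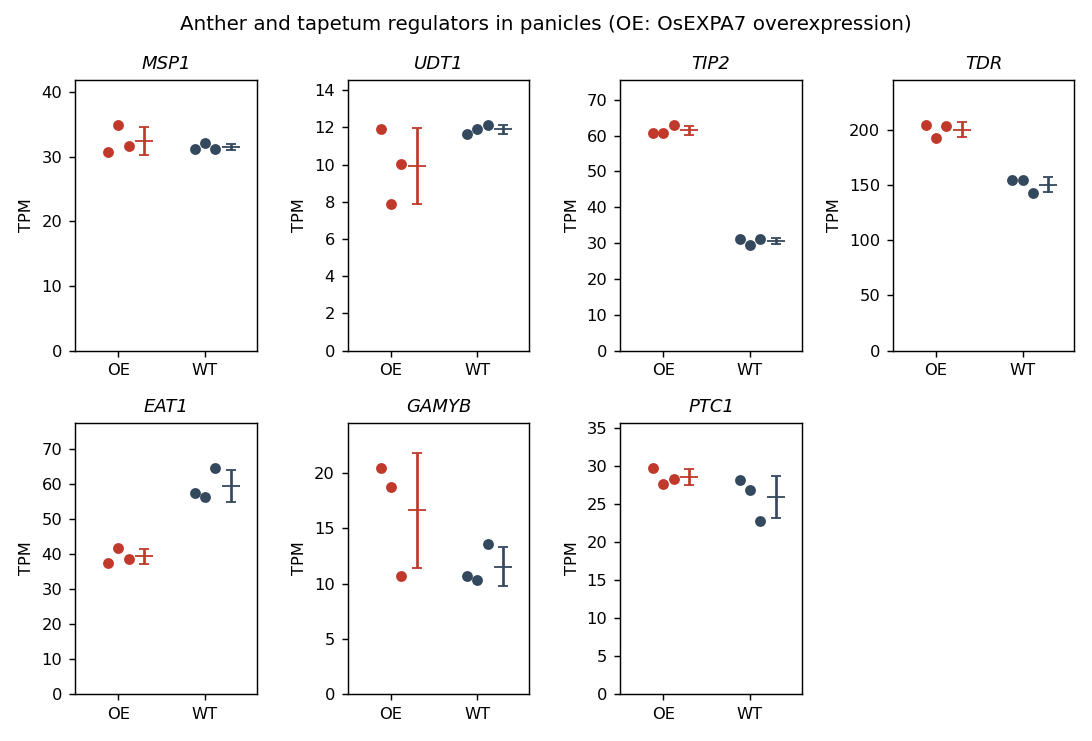
TPM of the 7 regulators in each library (points), with the group mean and SD beside them, OsEXPA7 overexpression (OE) left of WT. TIP2 and TDR sit higher in every OE library than in any WT library, EAT1 sits lower in every one, and the points of the other 4 genes overlap.

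UDT1, required for the early differentiation of the tapetum, had 11.9, 7.86 and 10.02 TPM in the overexpression libraries, against 11.6, 11.9 and 12.1 TPM in the WT libraries. The overexpression libraries spread by 20.4% of their mean and the WT libraries by 2.13%, and overexpression replicate 1 lay within the WT range. The log2 change was -0.26 ± 0.13 (SE), with a 95% interval from -0.55 to 0.04 (limma adjusted p = 0.141). Without overexpression replicate 1 it was -0.38 and passed (limma adjusted p = 0.0276, in a range up to 0.4 over the alternatives).

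GAMYB had 20.5, 18.8 and 10.7 TPM in the overexpression libraries, against 10.7, 10.3 and 13.6 TPM in the WT libraries. Overexpression replicates 1 and 2 lay above all WT libraries, and replicate 3 lay at the WT level. With this split the log2 change was 0.46 ± 0.21 (SE) and its 95% interval ran from -0.02 to 0.93 (limma adjusted p = 0.111). Without overexpression replicate 3 the change was 0.73 and passed (limma adjusted p = 0.00323, in a range up to 0.419 over the alternatives). GAMYB was the most variable of the 7 genes in both groups, with an SD of 31.2% of the mean in overexpression panicles and 15.5% in WT panicles.

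MSP1, the receptor at the start of wall-layer formation, had 30.7, 34.9 and 31.7 TPM in the overexpression libraries, against 31.1, 32.1 and 31.3 TPM in the WT libraries. The groups overlapped, and the 95% interval of the log2 change ran from -0.11 to 0.19 (limma adjusted p = 0.662). The sign of its change of 0.04 turned with scaling, to -0.07 after quantile normalization and -0.02 with median-of-ratios scaling.

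PTC1 had 29.7, 27.6 and 28.3 TPM in the overexpression libraries, against 28.1, 26.7 and 22.8 TPM in the WT libraries. WT replicate 3 was the lowest of the 6, and the other libraries lay close together. The log2 change of 0.14 ± 0.09 (SE) had a 95% interval from -0.05 to 0.33 (limma adjusted p = 0.218). Without WT replicate 3 it was 0.05 (limma adjusted p = 0.571, in a range from 0.125 to 0.819 over the alternatives).

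**Figure D2:**
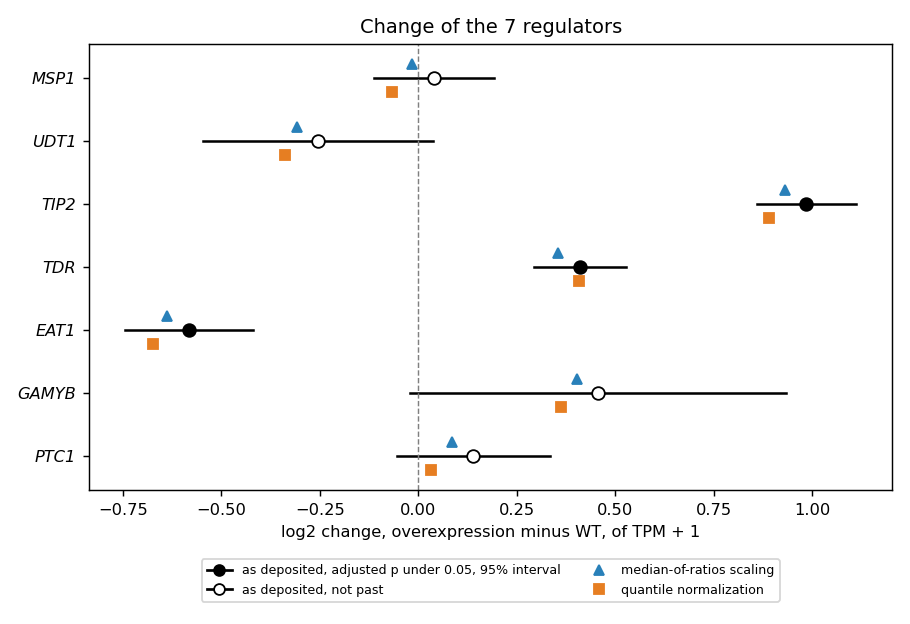
Log2 change of TPM + 1, overexpression minus WT, for each of the 7 regulators, with 95% intervals from limma (circles; filled where the adjusted p was under 0.05) and the values under 2 other scalings (triangles and squares). TIP2 and TDR lie to the right of 0 and EAT1 to the left under all 3 scalings, while MSP1 changes side.

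The order of the levels differed between the genotypes. In overexpression panicles the means ran from TDR (200.2 TPM) through TIP2 (61.5 TPM), EAT1 (39.3 TPM), MSP1 (32.4 TPM), PTC1 (28.5 TPM) and GAMYB (16.6 TPM) to UDT1 (9.92 TPM). In WT panicles they ran from TDR (150.3 TPM) through EAT1 (59.4 TPM), MSP1 (31.5 TPM), TIP2 (30.6 TPM), PTC1 (25.9 TPM) and UDT1 (11.9 TPM) to GAMYB (11.5 TPM). TIP2 thus stood above EAT1 in all 3 overexpression libraries and below it in all 3 WT libraries. Neighbours whose ranges overlapped were GAMYB and UDT1, in both genotypes. MSP1 and TIP2 in WT were separated by only 0.0188 TPM, and MSP1 and PTC1 in overexpression panicles by 0.994 TPM.

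Ratios within a library do not change when a library is multiplied by a single factor, so the bHLH factors were also set against each other. The ratio of TIP2 to EAT1 was 1.62, 1.45 and 1.63 in the overexpression libraries, against 0.543, 0.523 and 0.481 in the WT libraries. The ratio of TDR to EAT1 was 5.10 ± 0.439 in overexpression panicles and 2.54 ± 0.293 in WT panicles (SD, n = 3 each). For both ratios the groups did not overlap, and the two-sided exact permutation p was 0.1, the smallest that 3 against 3 libraries allow. Both outcomes were fixed by the values above: TIP2 and TDR were higher, and EAT1 lower, in every overexpression library than in any WT library. They add no separate evidence. The ratio of EAT1 to UDT1 was 4.11 ± 1.10 in overexpression panicles and 4.997 ± 0.298 in WT panicles, with overlapping groups (exact permutation p = 0.3, two-sided).

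The summed level of the 4 bHLH transcripts was 311 ± 7.25 TPM in overexpression panicles and 252 ± 2.12 TPM in WT panicles (SD, n = 3 each), without overlap (exact permutation p = 0.1, two-sided, the smallest possible). TIP2 made up 19.8% ± 0.395 of that sum in overexpression panicles and 12.1% ± 0.363 in WT panicles. EAT1 made up 12.7% ± 0.990 in overexpression panicles and 23.6% ± 1.93 in WT panicles. TDR held the majority in every library, 64.4% ± 0.728 in overexpression panicles and 59.6% ± 2.32 in WT panicles. The sum and the shares are built from the levels of the 4 genes given above and add no separate evidence.

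**Figure D3:**
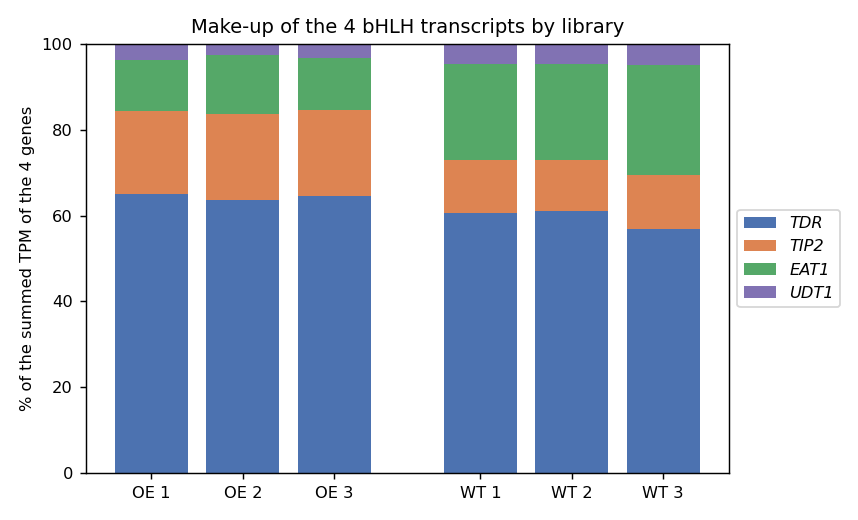
Share of each bHLH transcript in the summed TPM of TDR, TIP2, EAT1 and UDT1, as stacked bars for each library, overexpression (OE) left of WT. The TIP2 share is larger and the EAT1 share smaller in each OE library than in each WT library.

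Genes acting with or after these regulators were taken from lists of loci compiled from general knowledge. Of 69 listed loci 32 have their name in the RefSeq gene table on the chromosome and in the order that the identifiers give, and only these are called by name. For C6 and MADS16 no other named gene shares the chromosome, so their order could not be checked. Of 12 other tapetum and anther regulators, 11 were tested: 6 rose, 1 fell and 4 did not pass, with a median log2 change of 0.29. Over all tested loci 25.3% were higher and 17.5% lower, with a median of 0.06, and no test set this list against them. The largest rises were at LOC_Os02g28970 (log2 change 0.79 ± 0.06, limma adjusted p = 9.25e-06) and LOC_Os04g39470 (0.46 ± 0.07, limma adjusted p = 0.000593). The fall was at LOC_Os07g05630 (-0.80 ± 0.10, limma adjusted p = 0.00028; errors are SE).

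TDL1A, whose product is the ligand of MSP1, had 6.76 ± 1.15 TPM in overexpression panicles and 6.44 ± 0.585 TPM in WT panicles (SD, n = 3 each). It did not pass (limma adjusted p = 0.751), as its receptor MSP1 did not. SERK1, listed as a co-receptor kinase, had 91.3 ± 4.83 TPM in overexpression panicles and 91.5 ± 2.90 TPM in WT panicles and did not pass either (limma adjusted p = 0.961). API5, a tapetal regulator of cell death, had 70.8 ± 6.16 TPM in overexpression panicles and 56.3 ± 0.606 TPM in WT panicles, and rose with a log2 change of 0.32 ± 0.07 (SE; limma adjusted p = 0.00455). TDL1A, SERK1 and API5 are described because the reference names them, a choice made after values were seen.

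Products of the tapetum and the pollen wall moved in both directions. Of 21 listed loci 20 were tested: 7 rose, 8 fell and 5 did not pass (beside 25.3% higher and 17.5% lower over all tested loci), with a median log2 change of -0.07 that turned to 0.02 after quantile normalization. The 20 tested loci summed to 6328 ± 180.05 TPM in overexpression panicles and 8746 ± 190 TPM in WT panicles (SD, n = 3 each). The 7 regulators summed to 389 ± 6.18 TPM in overexpression panicles and 321 ± 3.27 TPM in WT panicles. Not every product was above the regulators: CP1, at 3.02 TPM in overexpression panicles and 5.69 TPM in WT panicles, lay below all 7. Most of the difference between the product sums of the 2 genotypes lay in C6 and C4. Their means were 261 and 874 TPM in overexpression panicles, against 1520 and 1853 TPM in WT panicles. The largest rises were at LOC_Os01g61940 (log2 change 0.88 ± 0.07, limma adjusted p = 2.41e-05) and LOC_Os07g22850 (0.59 ± 0.07, limma adjusted p = 0.000129; errors are SE).

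The largest falls were those of C6 and C4, both lipid-transfer-like proteins of the tapetum. C6 had 263, 255 and 263 TPM in the overexpression libraries, against 1470, 1524 and 1568 TPM in the WT libraries. C6 in overexpression panicles was at 0.171 of its WT mean, with a log2 change of -2.54 ± 0.04 (SE; limma adjusted p = 1.77e-09). C4 had 957, 875 and 791 TPM in the overexpression libraries, against 1891, 1906 and 1762 TPM in the WT libraries (log2 change -1.09 ± 0.07, limma adjusted p = 2.97e-06). TDR is known to bind the C6 promoter in rice, and here TDR rose while C6 fell. The ratio of TDR to C6 was 0.768 ± 0.0134 in overexpression panicles and 0.0990 ± 0.00732 in WT panicles (SD, n = 3 each). That difference was fixed by the values of TDR and C6 above and adds no separate evidence.

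The other named products are given because the reference names them, again chosen after values were seen. They do not stand for the list: of the 6 named products 5 fell and 0 rose, beside 17.5% lower and 25.3% higher over all tested loci. All 7 rises were at loci that the reference does not name. AP25, an aspartic protease gene activated by EAT1, had 505, 495 and 495 TPM in the overexpression libraries, against 737, 739 and 744 TPM in the WT libraries. AP25 fell with EAT1, by a log2 change of -0.57 ± 0.04 (SE; limma adjusted p = 3.1e-06) beside -0.58 for EAT1. The ratio of EAT1 to AP25 was 0.0790 ± 0.00505 in overexpression panicles and 0.0803 ± 0.00566 in WT panicles, with overlapping groups (exact permutation p = 0.7, two-sided). Near-equal changes of EAT1 and AP25 leave their ratio level by construction, and such a p cannot show that ratios are the same.

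AP37, the other protease gene activated by EAT1, had 173 ± 10.2 TPM in overexpression panicles and 209 ± 9.26 TPM in WT panicles, and fell by a smaller log2 change of -0.27 ± 0.06 (SE; limma adjusted p = 0.00529). The ratio of EAT1 to AP37, unlike that to AP25, did not overlap between the groups, at 0.228 ± 0.0253 in overexpression panicles and 0.286 ± 0.0346 in WT panicles (exact permutation p = 0.1, two-sided, the smallest possible). The lower ratio restates that EAT1 fell more than AP37 and adds no separate evidence. CP1, a cysteine protease gene that TDR is known to bind in rice, had 3.02 ± 0.158 TPM in overexpression panicles and 5.69 ± 0.769 TPM in WT panicles. CP1 fell with a log2 change of -0.73 ± 0.11 (SE; limma adjusted p = 0.000887). CYP703A3, a cytochrome P450 of sporopollenin synthesis regulated by GAMYB, had 473 ± 17.3 TPM in overexpression panicles and 464 ± 18.2 TPM in WT panicles. It did not pass (limma adjusted p = 0.642), and all values in this paragraph are mean ± SD with n = 3 in each group unless marked.

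**Figure D4:**
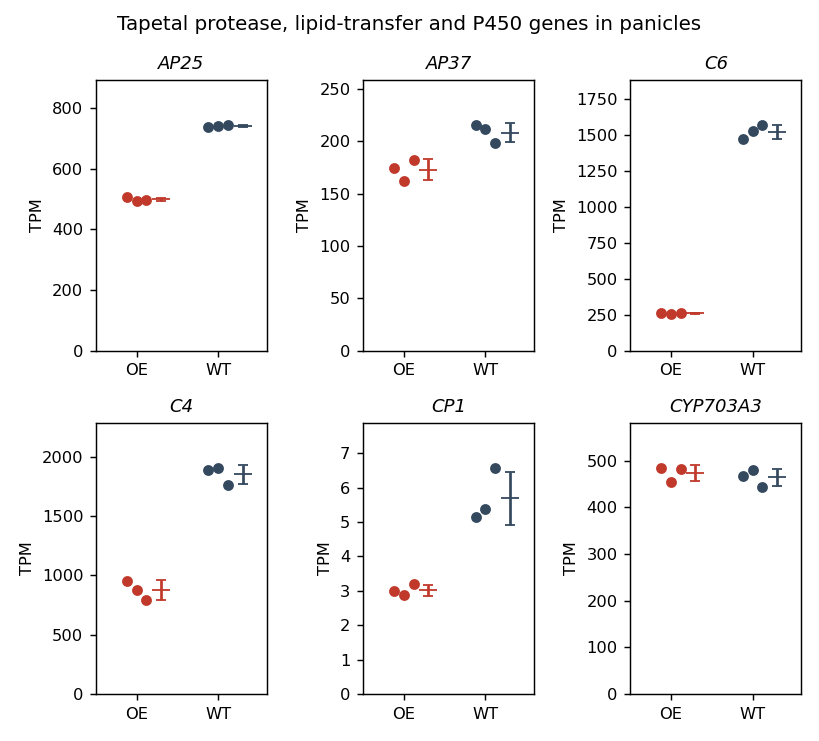
TPM of the 6 tapetal product genes that the reference names, in each library (points) with the group mean and SD, overexpression (OE) left of WT. These 6 are not typical of the list of 20 tested loci, of which 7 rose. AP25, AP37, C6, C4 and CP1 lie lower in every OE library than in any WT library, and CYP703A3 overlaps. Groups did not overlap, in either direction, for 53.7% of all tested loci.

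Genes of other stages and tissues were listed as well. Of 14 listed meiosis loci 4 rose and 10 did not pass, a share near the 25.3% of all tested loci that were higher. Their median log2 change was 0.26, with a positive change at all 14 as deposited and at 12 of them after quantile normalization. Over all tested loci the median was 0.06 as deposited and -0.02 after quantile normalization. The share of all tested loci with a positive change was not determined. The 14 meiosis loci summed to 154.5 to 165.5 TPM in the overexpression libraries and 122.8 to 131 TPM in the WT libraries. ZEP1, a central element protein of the synaptonemal complex, rose most, with 5.38 ± 0.598 TPM in overexpression panicles and 3.23 ± 0.286 TPM in WT panicles (SD, n = 3 each; log2 change 0.59 ± 0.11 SE, limma adjusted p = 0.00277). It was followed by LOC_Os12g38460 (log2 change 0.54 ± 0.11 SE, limma adjusted p = 0.00361). The number of meiosis loci called was 1 with a minimum of 5 TPM and 10 with library weights.

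Of the 5 floral identity genes, MADS16 and MADS58 rose, and the other 3 did not pass, so 2 of 5 were called beside 42.8% of all tested loci. MADS16, a class B gene of stamen identity, had 145.1 ± 4.88 TPM in overexpression panicles and 76.0 ± 2.84 TPM in WT panicles (SD, n = 3 each; log2 change 0.93 ± 0.05 SE, limma adjusted p = 1.65e-06). MADS58, of class C, had 13.8 ± 2.40 TPM in overexpression panicles and 8.77 ± 0.724 TPM in WT panicles (log2 change 0.59 ± 0.13 SE, limma adjusted p = 0.00575). OSH1, a meristem homeobox gene and the only listed meristem gene tested, rose with a log2 change of 0.24 ± 0.05 (SE; limma adjusted p = 0.00655), and it did not pass after quantile normalization.

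Of 5 loci of green tissue 4 fell and 1 did not pass, beside 17.5% of all tested loci lower, with a summed level of 554 to 609 TPM in the overexpression libraries and 899 to 974 TPM in the WT libraries. CAB2R, a light-harvesting protein gene, fell most (log2 change -0.79 ± 0.05 SE, limma adjusted p = 5.9e-06), followed by LOC_Os12g17600 (-0.74 ± 0.09 SE, limma adjusted p = 0.000179), both of families whose close copies may share reads. No late pollen locus could be tested: the highest single value was 0.596 TPM in overexpression panicles and 0.342 TPM in WT panicles, and the listed beta-expansin EXPB10 was listed at 0 in all 6 libraries. Summed levels of the late pollen list were 0.873 to 1.34 TPM in the overexpression libraries and 0.313 to 0.711 TPM in the WT libraries. Only LOC_Os03g01610 (mean 0.415 TPM in overexpression, 0.0275 TPM in WT) and LOC_Os03g01650 (0.384 and 0.0275 TPM) were higher. Their values were nearly equal in each WT library, and whether they share reads was not tested. The other listed late pollen loci were lower in mean or at 0. The part of stage and of tissue make-up in the changes of TIP2, TDR and EAT1 was not tested.

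**Figure D5:**
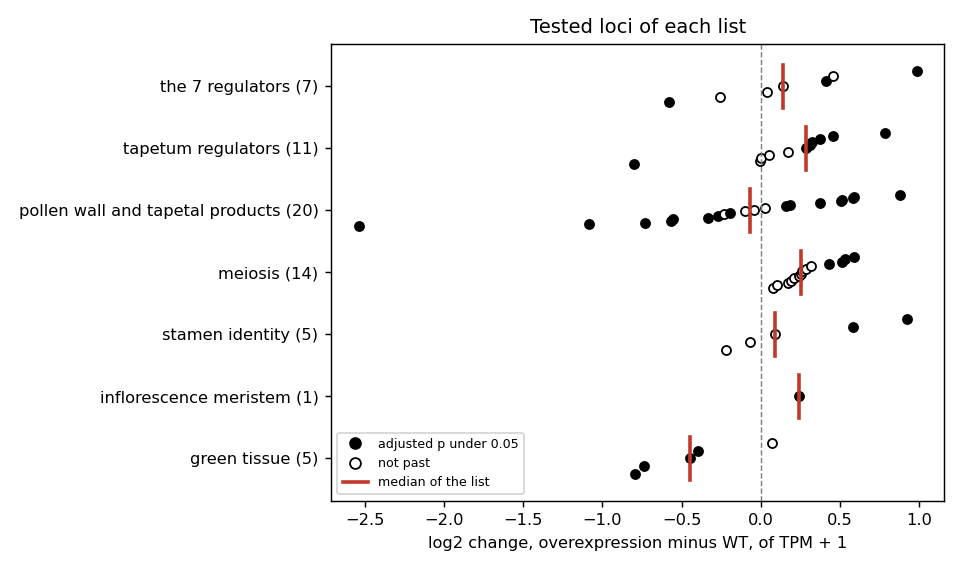
Log2 change of TPM + 1, overexpression minus WT, of each tested locus by list, with the number tested in brackets, the list median as a vertical bar, and filled points where the limma adjusted p was under 0.05. The tapetal products spread from -2.54 to 0.88, all 14 meiosis loci lie right of 0 (12 after quantile normalization), and 4 of 5 green tissue loci lie left of it. The median over all tested loci was 0.06 as deposited and -0.02 after quantile normalization.

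The loci whose pattern over the 6 libraries was most like each regulator were also looked up, as a description. Because the libraries fall into the 2 genotypes, a high Pearson r of log2(TPM + 1) for TIP2, TDR or EAT1 mostly reads the difference between genotypes. LOC_Os03g13300 was closest to TIP2 (r = 0.9997 over 6 libraries), LOC_Os10g36390 to TDR (r = 0.999) and LOC_Os09g10910 to EAT1 (r = 0.999). A high r does not mean a change of like size. The log2 changes of these loci were 3.31, 0.38 and -0.25, beside 0.99 for TIP2, 0.41 for TDR and -0.58 for EAT1. An r above 0.95 was reached by 2601 loci for TIP2, 1687 for TDR and 1156 for EAT1, but by only 16 for GAMYB, 26 for PTC1, 32 for UDT1 and 34 for MSP1, the 4 genes whose groups overlapped.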

How the data were processed

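RNA libraries of rice panicles were made with an mRNA kit, per the labels' protocols. The authors deposited TPM for 42189 loci, without naming an aligner, quantifier or annotation in any source used here. GRCm38 and mm10, both mouse builds, are named in the submitters' processing notes, whereas the table holds rice loci. TPM keeps no depth, so no counting interval or detection limit was set. Values were tested as log2(TPM + 1) for 23395 loci that reached 1 TPM in 3 or more of the 6 libraries, with limma 3.58.1 in R 4.3.3 (variance trend, two-sided, Benjamini-Hochberg over all tested loci). The fit was tested on simulated data. Per-library columns were assigned to groups by their labels.

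The table pairs no locus with a name. Names of the 7 genes came with the choice of loci, and those of OsEXPA7 and the lists from general knowledge. All 7 names and OsEXPA7 are in the RefSeq gene table (ASM3414082v1) on the chromosome of the identifier, and all 75 pairs of named genes that share a chromosome are in the same order in both. No coordinates or sequences were used. The genes, lists and tests were chosen with earlier results of these data known. Named loci are the 7 genes, the up to 2 largest rises and falls past the threshold in each list, and the loci with the most similar pattern, of which the closest are given for 3 genes. TDL1A, SERK1, API5, AP25, AP37, CP1, CYP703A3 and EXPB10 lie outside that rule and were added after values were seen, because the reference names them. LOC_Os03g01610 and LOC_Os03g01650 were also added after values were seen, because they carry the late pollen sum. Alternatives were a pseudocount of 0.1, no filter, a minimum of 5 TPM, 2 scalings, 2 variance models, library weights, a replicate block and leaving out each library.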

Additional observations from a re-analysis of the deposited data

How the results depend on the processing

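TIP2, TDR, EAT1 and OsEXPA7 passed with the same sign under all 15 alternatives, with log2 changes of 0.89 to 1.01, 0.35 to 0.44, -0.67 to -0.52 and 2.29 to 2.65. MSP1 turned negative after quantile normalization (-0.068), with median-of-ratios scaling (-0.015) and without overexpression replicate 2 (-0.013, in a range up to 0.078 when leaving out 1 library). Leaving out 1 library gave -0.38 to -0.11 for UDT1, 0.29 to 0.73 for GAMYB, 0.05 (without WT replicate 3) to 0.20 for PTC1, 1 to 2 of the 7 genes lower, 2 to 3 higher and 0 to 1 floral identity gene lower. UDT1 passed only without overexpression replicate 1, and GAMYB only without overexpression replicate 3. Meiosis loci called higher numbered 1 with a minimum of 5 TPM and 10 with library weights, against 4. The other tapetum and anther regulators called higher numbered 4 to 7 when 1 library was left out, against 6. Without a filter 2 late pollen loci were called higher, all below 1 TPM, and after quantile normalization 0 meristem loci were. Over all loci the share of calls that were higher was 45.7% after quantile normalization and 50.7% with median-of-ratios scaling, beside 59.1% with the TPM unchanged, and the median log2 change was -0.02, 0.00 and 0.06 in that order. Replicate numbers are shared between the groups: deviations of same-numbered libraries correlated at 0.097, -0.099 and -0.069, so the numbers were not taken as pairs, and not every library correlated best with its own number. The replicate block called 9264 loci instead of 10002 and left the 7 genes' calls as they were. Unknown depth limits what can be said of values under 1 TPM.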
